A study of Mus musculus with 441 samples.

Results

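Mouse embryonic stem cells grown in serum carry very different amounts of Dppa3 from one cell to the next, and the cells richest in it were set here against the cells poorest in it. The cells were chosen by their Dppa3 level, and by nothing else. Within each of the 2 serum plates, the 1 in 3 cells with the highest Dppa3 formed the Dppa3-high group and the 1 in 3 with the lowest formed the Dppa3-low group, with ties broken by the order of the columns. The Dppa3-high group held 61 cells (30 on plate 1 and 31 on plate 2), the Dppa3-low group held 61 (30 and 31), and the middle group held 61. The high and low groups together were 122 of the 183 serum cells, of 415 single cells and of 441 samples in all. Since Dppa3 chose the cells, its values are given as a description without a test.

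The study profiled single cells and populations of v6.5 mouse embryonic stem cells and of a line without Dgcr8. The cells used here were 94 v6.5 cells in 2i+LIF (1 plate), a medium with inhibitors of the kinases MEK and GSK3, 84 Dgcr8-/- cells in serum+LIF (1 plate) and the 183 v6.5 cells in serum+LIF (2 plates). The Dgcr8-/- line was made in v6.5 and lacks mature miRNAs, because Dgcr8 is a factor of their processing, and the labels do not say whether it is 1 clone. All these cultures contained LIF, the cytokine that sustains mouse embryonic stem cells. Bulk RNA came from 1 library of 2i cells, 2 of Dgcr8-/- cells and 2 of serum cells, and chromatin immunoprecipitation (ChIP) from 1 library per mark and culture.

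Dppa3, also called Stella or PGC7, is a small nuclear protein of oocytes, early embryos and primordial germ cells that shields DNA methylation in the zygote from oxidation. It is also known as a gene whose level varies between embryonic stem cells in serum, and it is counted among the markers of the naive state, the state of the pre-implantation epiblast. In oocytes and in cultured cells it is known to bind Uhrf1, the partner of the maintenance methyltransferase Dnmt1. The values below are TPM, a length-normalised share of the transcripts of a cell, and differences are between group means of log2(TPM + 1), a scale that understates the change of genes at low levels.

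Dppa3 had a lowest, median and highest level of 124, 196 and 571 TPM in the high cells of plate 1, of 27.7, 56.4 and 123 TPM in the middle cells, and of 0, 13.2 and 27 TPM in the low cells. On plate 2 it had 84.4, 165 and 900 TPM in the high cells, 23.6, 45.3 and 83.7 TPM in the middle cells, and 0, 11.1 and 23 TPM in the low cells. Dppa3 was listed at 0 in 5 low cells of plate 1 and in 3 low cells of plate 2, so most low cells still held Dppa3 RNA. The groups are ranges of a continuous spread: on plate 1 the lowest high cell (124.4 TPM) lay next to the highest middle cell (122.9 TPM), and the highest low cell (27 TPM) next to the lowest middle cell (27.7 TPM). In 2i the median over all 94 cells was 359 TPM (range 6.36 to 1013), in Dgcr8-/- cells 110 TPM (0 to 952, with 12 of 84 cells at 0), and in all serum cells 56.4 TPM on plate 1 and 45.3 TPM on plate 2. The bulk libraries had 438 TPM in 2i, 120 and 139 TPM in Dgcr8-/- cells, and 116 and 104 TPM in serum.

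**Figure D1:**
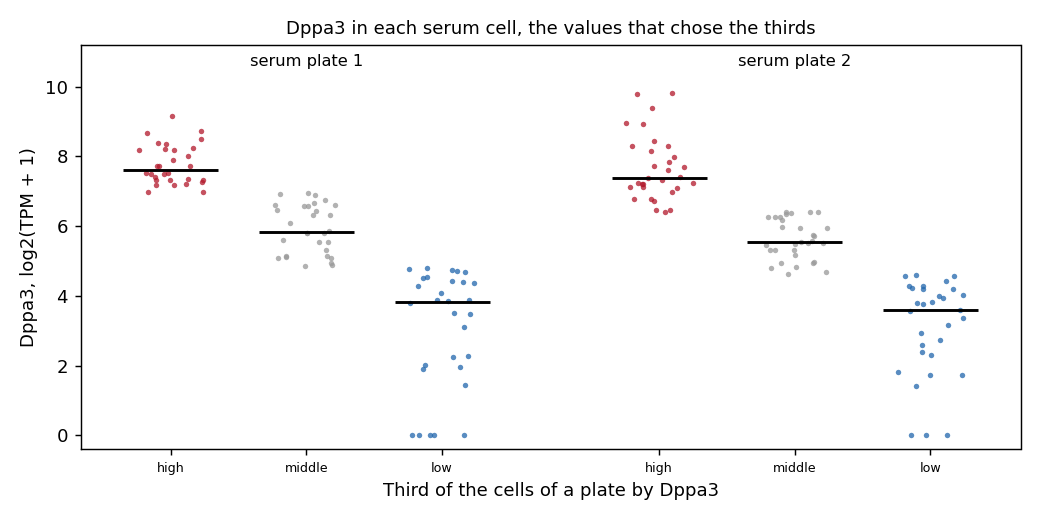
Dppa3 level, as log2(TPM + 1), in each serum cell of the high, middle and low groups on plate 1 and plate 2; points are cells and bars are medians. The groups were cut from 1 continuous spread of values on each plate, and the low groups include the 5 and 3 cells listed at 0.

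The serum cells of both groups carried the pluripotency genes. Pou5f1 (Oct4) reached 1 TPM in 90 of 90 cells of plate 1 and 92 of 93 of plate 2, Nanog in 90 of 90 and 93 of 93, and Sox2 in 85 of 90 and 91 of 93. The deposited table lists no gene with a value above 0 in 1 to 9 of the 183 serum cells, so a gene listed at 0 throughout could have been present in up to 9 of them. All 6 primitive endoderm markers searched (Gata4, Gata6, Sox17, Sox7, Pdgfra and Dab2), all 4 mesoderm markers, all 6 fibroblast or feeder markers and all 4 markers of Zscan4-positive cells were listed at 0 in every serum cell. Of 6 trophoblast markers Cdx2 and Hand1 were listed at 0, and of 5 neural markers Sox1, Fabp7 and Olig2 were. The neural markers summed to 0 to 12.7 TPM in the high cells and 0 to 19.4 TPM in the low cells of the 2 plates.

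The summed trophoblast markers ran from 0.245 to 399 TPM in the high cells and 2.60 to 145 TPM in the low cells of plate 1, and from 0 to 111 TPM in the high cells and 1.76 to 6543 TPM in the low cells of plate 2. At least 500 TPM of them was reached in 2 low cells and 1 middle cell of plate 2, mostly from Plac1, a placental gene. The low cell with the most had no Dppa3, Pou5f1 or Sox2 listed, with 262 TPM of Nanog. Results below were also computed without these cells.

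The median number of genes detected at 1 TPM was 7836 in the high cells, 7609 in the middle cells and 7695 in the low cells of plate 1, and 7857, 7567 and 7610 on plate 2. The rank correlation of Dppa3 with the number of genes detected was 0.159 over the 90 cells of plate 1 and 0.366 over the 93 of plate 2. The median gene lay 0.03 higher in the high cells on plate 1 and 0.14 higher on plate 2, a mean of 0.08, and the differences below can be read against that shift. The part of either in the results was not tested beyond the fits that regress out genes detected or centre on the median gene.

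Promoter windows of leading genes are shown first, because the 3 Gstm genes and Ifitm1, Id3 and Tdrd12 were all higher in Dppa3-high cells. They are RefSeq windows of 250 bases before to 50 after the annotated start, on GRCm38.p6, with each CG dinucleotide, the main site of DNA methylation in mammals, in capitals; the deposited ChIP windows use mm9 and are not matched to them. RefSeq windows were matched for 100 of the 139 genes called higher and 55 of the 70 called lower, and were not at hand for Dppa3, Rhox6 and Rhox9. The windows are Ifitm1 (chr7:140967826-140968125, + strand), Gstm1 (chr3:108017924-108018223, - strand, 1 of 2 windows), Gstm2 (chr3:107986371-107986670, - strand), Gstm3 (chr3:107969125-107969424, - strand), Tdrd12 (chr7:35537666-35537965, - strand, 1 of 2 windows) and Id3 (chr4:136143572-136143871, + strand).
Ifitm1: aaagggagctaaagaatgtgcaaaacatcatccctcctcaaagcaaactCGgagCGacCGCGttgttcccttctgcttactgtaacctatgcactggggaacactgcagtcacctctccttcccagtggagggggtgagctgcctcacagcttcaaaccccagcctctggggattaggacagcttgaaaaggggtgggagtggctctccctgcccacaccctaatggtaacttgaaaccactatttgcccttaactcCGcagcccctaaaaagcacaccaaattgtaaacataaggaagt
Gstm1: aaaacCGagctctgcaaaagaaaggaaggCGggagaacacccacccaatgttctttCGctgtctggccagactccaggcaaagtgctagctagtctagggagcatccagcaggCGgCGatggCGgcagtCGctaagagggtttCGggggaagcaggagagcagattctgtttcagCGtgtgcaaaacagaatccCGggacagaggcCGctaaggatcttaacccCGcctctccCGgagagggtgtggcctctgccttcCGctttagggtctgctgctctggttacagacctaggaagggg
Gstm2: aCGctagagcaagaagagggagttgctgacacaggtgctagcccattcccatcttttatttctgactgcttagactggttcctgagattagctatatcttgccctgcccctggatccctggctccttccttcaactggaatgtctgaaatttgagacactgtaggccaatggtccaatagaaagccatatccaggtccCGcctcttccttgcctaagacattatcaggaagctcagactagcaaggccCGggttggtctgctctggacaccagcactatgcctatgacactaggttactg
Gstm3: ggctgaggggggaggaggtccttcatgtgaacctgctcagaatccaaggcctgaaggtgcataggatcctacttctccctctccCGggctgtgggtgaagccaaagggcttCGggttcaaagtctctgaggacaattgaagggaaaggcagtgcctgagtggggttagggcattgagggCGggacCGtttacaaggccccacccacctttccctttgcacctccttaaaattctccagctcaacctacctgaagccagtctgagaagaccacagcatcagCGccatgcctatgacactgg
Tdrd12: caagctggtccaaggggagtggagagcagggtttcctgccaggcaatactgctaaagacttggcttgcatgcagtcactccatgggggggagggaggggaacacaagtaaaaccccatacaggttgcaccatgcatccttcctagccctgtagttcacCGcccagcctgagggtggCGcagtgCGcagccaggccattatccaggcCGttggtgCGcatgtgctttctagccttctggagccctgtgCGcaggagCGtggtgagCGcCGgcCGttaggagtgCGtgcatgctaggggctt
Id3: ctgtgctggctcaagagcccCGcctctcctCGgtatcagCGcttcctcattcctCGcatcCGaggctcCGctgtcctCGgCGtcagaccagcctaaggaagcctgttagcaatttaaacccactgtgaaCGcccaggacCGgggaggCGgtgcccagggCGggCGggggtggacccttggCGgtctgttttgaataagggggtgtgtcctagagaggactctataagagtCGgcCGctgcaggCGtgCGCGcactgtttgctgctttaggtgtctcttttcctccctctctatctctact

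These windows hold 5 CG dinucleotides in Ifitm1, 14 in Gstm1, 3 in Gstm2, 5 in Gstm3, 11 in Tdrd12 and 19 in Id3, against a median of 7 over all 32851 RefSeq windows and of 21 over the windows of the genes tested. The median was 13 over the 136 windows of genes called higher and 14.5 over the 60 windows of genes called lower, both under that of the genes tested. The AP-2 motif GCCNNNGGC, searched on both strands because Tcfap2c is among the genes called higher, was in 19.9% of the windows of genes called higher, in 25% of those called lower, in 24.3% of those of all genes tested and in 16.6% of all windows. The octamer ATGCAAAT was in 2.94%, 1.67%, 1.22% and 1.74% of the same windows, and the KLF motif CCCCACCC in 12.5%, 15%, 11.9% and 9.99%. Of the windows printed, Id3 holds the AP-2 letters and Gstm3 the KLF letters, and none holds the octamer.

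Across 11502 genes, 139 were higher and 70 lower in Dppa3-high cells, which is 1.21% and 0.609% of the genes tested. The test was limma with a trend on the 4 profiles (2 groups on 2 plates, n = 2 plates), with plate as a block and a Benjamini-Hochberg adjusted p under 0.05. Several names can carry identical values, and with 1 name per set of such values the calls were 131 higher and 59 lower. Of the genes called higher, 138 of 139 were higher on both plates, and all 70 called lower were lower on both. Relative to each plate's median gene the calls were 58 higher and 84 lower, so the share of calls that were higher was 40.8% after that centring and 66.5% before it.

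The spread of every gene came wholly from the trend across genes in this fit, with 1 residual degree of freedom, which is lenient to genes more variable than others of their level. Without the trend the calls were 45 higher and 7 lower, and with the number of genes detected regressed out of each gene they were 52 higher and 10 lower.

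A difference of at least 1 log2 unit on both plates was met by 21 genes (20 with distinct values), which is 0.183% of the genes tested, and all were higher in Dppa3-high cells. No gene was lower by that much on both plates, and 1 gene passed that size on both plates in opposite directions. All 21 were called by limma, and all 21 remained called without the trend and relative to the median gene. Plate by plate, 58 genes (0.504%) were higher by that size on plate 1 and 125 (1.09%) on plate 2, and 13 (0.113%) and 44 (0.383%) were lower. The 21 shared genes are 36.2% of those higher on plate 1 and 16.8% of those higher on plate 2.

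**Figure D2:**
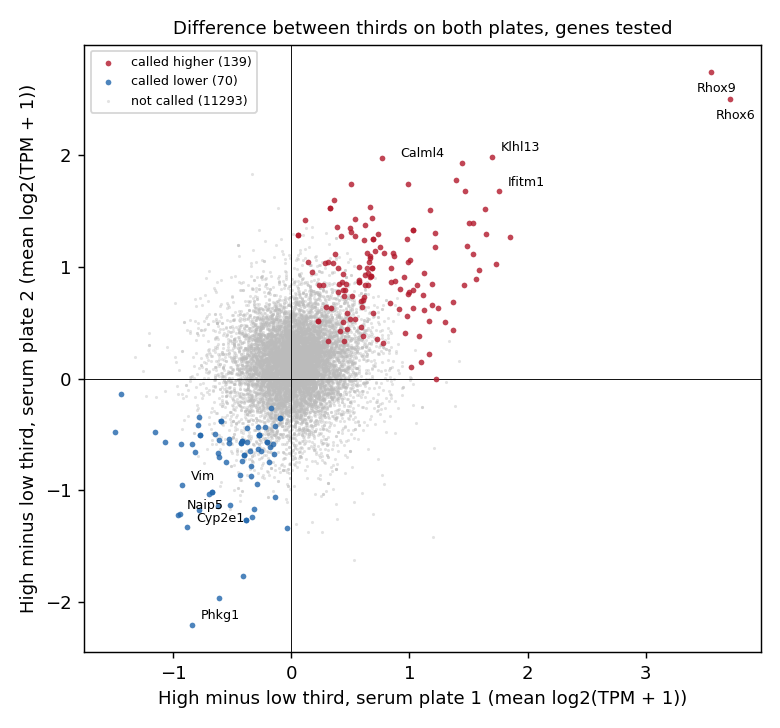
Difference between the Dppa3-high and Dppa3-low cells on serum plate 1 (horizontal) and plate 2 (vertical), in mean log2(TPM + 1), for each gene tested; red points are the 139 genes called higher, blue points the 70 called lower. Rhox6 and Rhox9 lie apart from the others at the upper right, and no called gene is past 1 log2 unit lower on both plates.

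Homeobox genes of the Rhox cluster on the X chromosome differed most between the groups in mean log2(TPM + 1). Rhox6 and Rhox9, also known as Psx genes, are close paralogues expressed in the placenta and in germ cells, and the counting may have divided reads between them, so the split between the pair is uncertain. On plate 1, Rhox6 had a lowest, median and highest level of 0, 20.3 and 1466 TPM in high cells against 0, 0 and 773 TPM in low cells. On plate 2 Rhox6 had 0, 13.2 and 2950 TPM in high cells against 0, 0 and 3017 TPM in low cells. More high cells held the RNA, but the ranges overlapped, on plate 2 up to the highest levels. Rhox6 reached 1 TPM in 23 of 30 high cells against 10 of 30 low cells on plate 1, and in 25 of 31 against 14 of 31 on plate 2. The middle cells lay between, with 14 of 30 and 19 of 31. Rhox6 was higher in the high cells by 3.11 log2 units (SE 0.24, adjusted p = 2.94e-33 by limma), by 3.71 on plate 1 and 2.50 on plate 2. Without the trend its adjusted p was 8.96e-06 by limma.

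Rhox9 followed the same order. It had a median and highest level of 22.9 and 1843 TPM in high cells against 0 and 564 TPM in low cells of plate 1, and 10.8 and 3565 TPM against 0 and 3726 TPM on plate 2. It reached 1 TPM in 22 of 30 high cells against 10 of 30 low cells on plate 1 and in 25 of 31 against 9 of 31 on plate 2. Rhox9 was higher by 3.15 log2 units (SE 0.25, adjusted p = 4.72e-32 by limma), by 3.56 on plate 1 and 2.74 on plate 2. Without the trend its adjusted p was 2.42e-06 by limma.

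Rhox6 and Rhox9 were also high in a few Dppa3-low cells. Of the low cells, 1 on plate 1 and 2 on plate 2 had at least 500 TPM of Rhox6, as had 5 and 2 high cells. The 2 low cells of plate 2 had 3017 and 2836 TPM of Rhox6 with 3726 and 3048 TPM of Rhox9, and they are the 2 low cells with the most trophoblast markers, with 779 and 6266 TPM of Plac1. The 7 high cells with that much Rhox6 had Plac1 listed at 0. Without the cells high in trophoblast markers the difference was 3.44 log2 units for Rhox6 and 3.51 for Rhox9. Taken as the log2 of the group's mean TPM, which a few cells can set, the difference was 1.46 for Rhox6 and 1.495 for Rhox9, below the 1.71 of Ifitm1 on that scale.

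Of 20 germline genes tested 5 were called, all higher, beside 1.21% of all genes tested: Rhox6, Rhox9, Ifitm1, Ifitm3 and Tcfap2c. Without the trend 4 were called, and without the plate block 2. Rhox6 and Rhox9 were also the 2 calls among 7 trophoblast genes tested. The germline list was chosen with earlier results of these data known, and its median difference was 0.17, beside 0.08 over all genes tested. Ifitm1, or fragilis2, is an interferon-inducible membrane protein that marks early primordial germ cells together with Dppa3. It had 286, 1281 and 4056 TPM (lowest, median, highest) in high cells against 24.2, 443 and 871 TPM in low cells of plate 1. On plate 2 Ifitm1 had 88.6, 1280 and 4239 TPM in high cells against 6.07, 399 and 1035 TPM in low cells. The median of the high cells lay above the highest low cell on both plates, although the ranges overlapped, and the middle cells lay between (medians 725 and 500 TPM). The difference of Ifitm1 was 1.72 log2 units (SE 0.12, adjusted p = 1.63e-44 by limma), 1.76 on plate 1 and 1.68 on plate 2. Without the trend its adjusted p was 0.000364 by limma.

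Ifitm3 (fragilis), its neighbour in the family, was higher by 0.89 log2 units (SE 0.11, adjusted p = 4.13e-12 by limma), with medians of 1186 TPM in high and 687 TPM in low cells of plate 1 and 916 against 722 TPM on plate 2; without the trend its adjusted p was 0.0553. The Ifitm genes are close paralogues, and reads could have been divided between them. Tcfap2c (AP-2 gamma), a transcription factor of primordial germ cells and trophoblast, was higher by 1.01 (SE 0.26, adjusted p = 0.00942 by limma). Its levels were low, with medians of 5.14 TPM in high and 1.90 TPM in low cells of plate 1, and 5.57 and 0.702 TPM on plate 2; its call was lost with genes detected regressed out (adjusted p = 0.232) and in 5 other alternatives. Tdrd12, a Tudor-domain protein of the piRNA pathway in germ cells, was higher by 1.45 (SE 0.23, adjusted p = 9.91e-08 by limma). It reached 10 TPM in 27 of 30 high against 15 of 30 low cells on plate 1, and in 28 of 31 against 14 of 31 on plate 2.

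**Figure D3:**
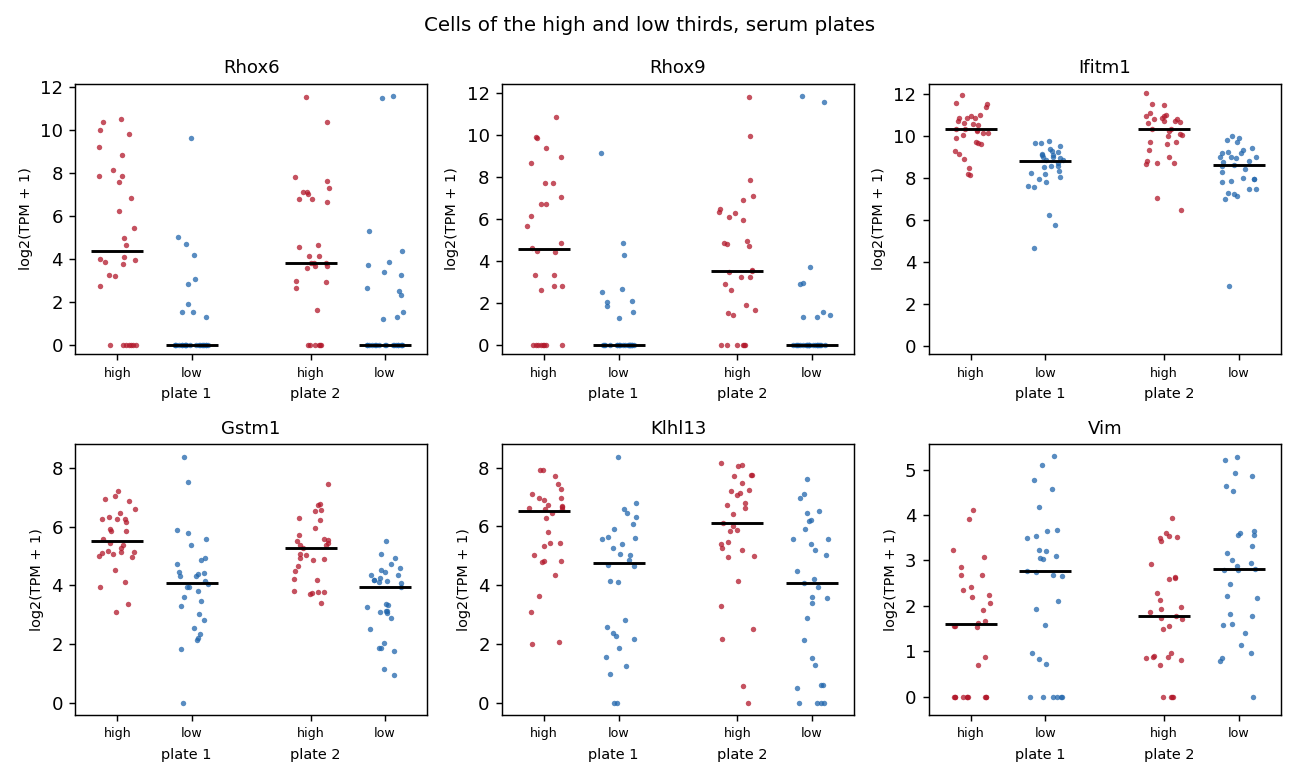
Levels of Rhox6, Rhox9, Ifitm1, Gstm1, Klhl13 and Vim, as log2(TPM + 1), in each cell of the Dppa3-high and Dppa3-low groups on both serum plates; points are cells and bars are medians. The Rhox6 and Rhox9 medians of the low cells are 0 on both plates, while on plate 2 single low cells reach the levels of the highest high cells.

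None of the 12 core pluripotency genes tested was called by limma with or without the trend, and their median difference was 0.10. At an unadjusted p under 0.05 with the trend, 1 was higher and 1 lower (Nanog), beside 7.9% higher and 3.23% lower over all genes tested. Pou5f1 had medians of 45.2 TPM in high and 47.6 TPM in low cells of plate 1 and 40.4 and 33.1 TPM on plate 2, a difference of 0.11 log2 units (SE 0.19, adjusted p = 0.901 by limma). Sox2, the partner of Pou5f1, was at 0.50 (SE 0.25, adjusted p = 0.437 by limma). Zfp42 (Rex1), a naive marker, differed by 0.22 (SE 0.16, adjusted p = 0.693 by limma), with 0.70 on plate 1 and -0.26 on plate 2. Nanog lay on the other side: its medians were 745 TPM in high and 968 TPM in low cells of plate 1, and 1371 and 1726 TPM on plate 2. The Nanog difference of -0.33 (SE 0.11) missed the threshold with an adjusted p of 0.0808 by limma. Relative to the median gene it was -0.42 with an adjusted p of 0.0220, and with genes detected regressed out it was -0.13 (adjusted p = 0.647).

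Of 23 naive pluripotency genes tested, Fbxo15 and Sox15 were higher and none was lower, beside 1.21% and 0.609% of all genes tested. The median difference of the list was 0.17, beside 0.08 over all genes tested. At an unadjusted p under 0.05 by limma, 4 of the list were higher and 1 lower, beside 7.9% and 3.23%. Fbxo15, an F-box protein known as a target of Oct4 and Sox2 in embryonic stem cells, had medians of 96.8 TPM in high and 60.7 TPM in low cells of plate 1 and 102 and 42.2 TPM on plate 2. Its difference was 0.98 log2 units (SE 0.18, adjusted p = 1.66e-05 by limma). Sox15, a Sox factor that can pair with Oct4, reached 1 TPM in 25 of 30 high against 16 of 30 low cells on plate 1 and in 25 of 31 against 15 of 31 on plate 2, a difference of 1.26 (SE 0.26, adjusted p = 0.000299 by limma). In the Dppa family, Dppa5a, an RNA-binding protein, was called at 0.46 (SE 0.07, adjusted p = 7.97e-08 by limma) on very high levels, with medians of 7082 TPM in high and 6122 TPM in low cells of plate 1. A low cell of plate 1 had Dppa5a listed at 0 and a low cell of plate 2 had 194 TPM, and such values weigh heavily in means of log values. As the log2 of the mean TPM the difference was 0.22 and was not called. The part of these cells in the call was not tested. The call of Dppa5a was also lost without the trend (adjusted p = 0.391 by limma). Dppa2 and Dppa4, chromatin proteins that act together, were at 0.28 and 0.37 and were not called.

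The genes that neighbour Dppa3 on chromosome 6 were not called by limma with or without the trend, 0 of 6 tested, with a median difference of 0.21; at an unadjusted p under 0.05, 2 were higher and 1, Nanog, lower, beside the same 7.9% and 3.23% of all genes. Gdf3, a TGF-beta family ligand, was at 0.52 (adjusted p = 0.145 by limma) and Slc2a3, a glucose transporter, at 0.46 (adjusted p = 0.0538). Nanog, which lies in the same region, had the negative value above. In the deposited ChIP table the Dppa3 window is chr6:122575941-122576941 on the + strand of mm9. Its H3K4me3 counts were 124 in 2i, 39 in Dgcr8-/- cells and 238 in serum, at percentiles 49.7, 40.6 and 48.7 of all windows of the same library, and its H3K27me3 counts were 24, 34 and 27, at percentiles 70.8, 80.3 and 65.6. Counts of libraries of different totals cannot be set against each other directly, and each percentile comes from 1 library.

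None of the 16 DNA methylation genes tested was called by limma, 0 passed an unadjusted p of 0.05, and their median difference was 0.10. Dnmt1, the maintenance methyltransferase, had medians of 10.95 TPM in high and 6.29 TPM in low cells of plate 1 and 6.58 and 6 TPM on plate 2, a difference of 0.37 (SE 0.24, adjusted p = 0.642 by limma). The 13 primed and post-implantation genes tested gave no call, with 4 higher at an unadjusted p under 0.05, beside 7.9% of all genes tested, and Otx2, a factor of the primed state, was at 0.49 (SE 0.25, adjusted p = 0.439 by limma). By limma with or without the trend, no gene was called among 20 imprinted genes, 6 maternal-effect genes, 14 genes of the ERK pathway, 5 Wnt targets, 5 primitive endoderm genes and 2 of Zscan4-positive cells. At an unadjusted p under 0.05 these lists held 2 higher and 1 lower, 1 and 1, 1 and 1, 0 and 0, 0 and 1, and 0 and 0, beside 7.9% higher and 3.23% lower over all genes tested. No gene of mesoderm could be tested.

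Cell cycle and metabolic genes gave 1 call. None was called by limma with or without the trend among 23 genes of G1/S, 22 of G2/M, 11 of the stress response, 13 p53 targets and 22 of cholesterol synthesis. At an unadjusted p under 0.05 these held 0 higher and 3 lower, 0 and 0, 0 and 0, 2 and 0, and 0 and 1, beside the same 7.9% and 3.23%. Of 22 glycolysis genes 1 was called, beside 1.21% of all genes tested called higher. It was Ldhb, a lactate dehydrogenase subunit, at 1.06 (SE 0.21, adjusted p = 0.000236 by limma), a call lost as the log2 of the mean TPM.

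In the list of BMP and Nodal targets 2 of 11 were called, both higher, with a median of 0.29, beside 1.21% of all genes tested called higher. Id3, an inhibitor of basic helix-loop-helix factors induced by BMP, had medians of 222 TPM in high and 104 TPM in low cells of plate 1 and 179 and 61.8 TPM on plate 2. Its difference was 1.58 (SE 0.16, adjusted p = 6.36e-20 by limma), and the ranges of the groups overlapped. Without the trend the adjusted p of Id3 was 0.000772 by limma. Lefty1, a secreted inhibitor of Nodal, was seen in few cells: it reached 1 TPM in 10 of 30 high against 4 of 30 low cells on plate 1, and in 9 of 31 against 1 of 31 on plate 2, a difference of 0.65 (SE 0.16, adjusted p = 0.0057 by limma). Its call was lost relative to the median gene and in 5 other alternatives. In the LIF list 2 of 13 were higher, beside the same 1.21% of all genes tested. Among them Socs2, a feedback inhibitor of cytokine receptors, was higher by 0.92 (SE 0.22, adjusted p = 0.00347 by limma). The call of Socs2 was lost as the log2 of the mean TPM, with a pseudocount of 0.1 or 10 and without the plate block.

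Genes of glutathione and antioxidant metabolism stood among those past 1 log2 unit on both plates. They were grouped here after their values were seen, so no count over a list is given. Gstm1, Gstm2 and Gstm3 are neighbouring mu-class glutathione S-transferases, enzymes that join glutathione to reactive compounds, and as close paralogues they may have shared reads. Gstm1 had a lowest, median and highest level of 7.47, 44.4 and 148 TPM in high cells against 0, 16 and 331 TPM in low cells of plate 1. On plate 2 Gstm1 had 9.54, 37.8 and 172 TPM in high cells against 0.951, 14.2 and 44.1 TPM in low cells. The high cells lay higher in the median on both plates, while 1 low cell of plate 1 held the highest level there. The difference of Gstm1 was 1.58 (SE 0.21, adjusted p = 4.11e-11 by limma).

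Gstm3 reached 1 TPM in 17 of 30 high against 2 of 30 low cells on plate 1 and in 15 of 31 against 5 of 31 on plate 2, a difference of 1.56 (SE 0.21, adjusted p = 8.39e-11 by limma). Gpx4, the peroxidase that reduces lipid peroxides in membranes, had medians of 436 TPM in high and 196 TPM in low cells of plate 1 and 487 and 190 TPM on plate 2, a difference of 1.18 (SE 0.13, adjusted p = 1.58e-15 by limma). Both Gstm1 and Gpx4 were among the 5 genes with the highest mean rank correlation with Dppa3 over all cells of a plate. The correlation on plate 1 and plate 2 was 0.590 and 0.570 for Ifitm1, 0.478 and 0.542 for Gstm1, 0.460 and 0.566 for Gpx4, 0.437 and 0.583 for Skp1a, a subunit of SCF ubiquitin ligases, and 0.486 and 0.454 for Rhox9. These use the 90 and 93 cells of each plate, which share their library preparation and the tie of Dppa3 to genes detected.

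Other leading genes fall in none of the lists. Klhl13, an X-linked adaptor of cullin ubiquitin ligases, had medians of 90.95 TPM in high and 26.3 TPM in low cells of plate 1 and 69 and 16 TPM on plate 2, a difference of 1.84 (SE 0.20, adjusted p = 1.85e-16 by limma). Fhl1, an X-linked LIM-domain protein, was higher by 1.58, Calml4, a calmodulin-like protein, by 1.69, Lck, a Src-family kinase, by 1.47, and Lgals9, a galectin, by 1.46, each called by limma. Lgals1, another galectin but a member of the fibroblast list, was higher by 1.12 (SE 0.18), but its sign depended on the summary. The log2 of the mean TPM gave -0.24, and the highest Lgals1 value, 5214 TPM, was in a low cell of plate 2.

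Genes on the X chromosome were 13 of the 119 higher calls whose gene could be placed, or 10.9%, against 1 of 52 lower calls (1.92%) and 325 of 9568 genes tested (3.40%). Of the 20 genes past 1 log2 unit on both plates 5 were X-linked: Rhox6, Rhox9, Klhl13, Fhl1 and Hmgn5. The share was computed after the calls were seen, and the sex of the line and the number of X chromosomes in each cell were not examined.

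The 70 genes lower in Dppa3-high cells differed by less. The 12 with the greatest difference on both plates were Phkg1, Cyp2e1, Naip5, AK002390, Slc10a1, Vim, Zfp202, Gm7819, Zbtb24, Padi4, Frs2 and Ap4e1, with mean differences of -1.52 to -0.64. Cyp2e1, a cytochrome P450 best known from liver, had medians of 59.1 TPM in high and 91.5 TPM in low cells of plate 1 and 236 and 571 TPM on plate 2, a difference of -1.10 (SE 0.15, adjusted p = 8.92e-11 by limma). AK002390, a transcript named by its accession in the table, had 272 and 454 TPM on plate 1 and 401 and 940 TPM on plate 2, a difference of -1.08 (SE 0.12, adjusted p = 7.76e-15). Both lay lower in the median of the high cells on each plate, with overlapping ranges. Cyp2e1 and AK002390 were the only lower calls that held under each alternative other than the fit without the plate block.

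Vim, the intermediate filament of mesenchymal and neural cells, was called lower at -0.94 (SE 0.26, adjusted p = 0.0229 by limma). It reached 1 TPM in 18 of 30 high against 21 of 30 low cells on plate 1 and in 20 of 31 against 27 of 31 on plate 2, and its call was lost with genes detected regressed out (adjusted p = 0.225) and in 5 other alternatives. Vim was the 1 neural gene called of 2 tested, and in the fibroblast list of 6 tested it stood with Lgals1 and S100a6, which were higher. Over all genes tested 1.21% were called higher and 0.609% lower. The defining fibroblast markers were listed at 0 in all serum cells. Phkg1, a subunit of phosphorylase kinase, had medians of 4.25 TPM in high and 4.08 TPM in low cells of plate 1 and 10.8 and 38.7 TPM on plate 2, so its difference of -1.52 (SE 0.23) came from plate 2 (-2.20) more than from plate 1 (-0.84). With genes detected regressed out it was -0.69 and its call was lost (adjusted p = 0.108 by limma). Hmga2, a chromatin protein of embryonic cells and among the 5 genes with the lowest correlation with Dppa3, reached 1 TPM in 3 of 30 high against 12 of 30 low cells on plate 1 and in 7 of 31 against 15 of 31 on plate 2. Its difference was -0.60 (SE 0.18, adjusted p = 0.0388 by limma), and the call was lost in 7 alternatives.

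Several of these lower genes stood higher in single cells than in bulk RNA of the same culture. The serum bulk libraries had 2.69 and 3.93 TPM of Cyp2e1, 1.08 and 1.03 TPM of Phkg1, 0.406 and 0.252 TPM of Naip5, and 22.6 and 25.0 TPM of AK002390. Naip5, a sensor of bacterial flagellin in macrophages, had a median of 22.8 TPM in high and 48.7 TPM in low cells of plate 2, and its call was lost with genes detected regressed out (adjusted p = 0.0750 by limma). The names are those of the deposited table, and whether the reads counted under Cyp2e1, Phkg1 and Naip5 come from these genes was not tested. Such gaps were not limited to the lower genes. For Ifitm1 the bulk levels of 355 and 341 TPM lay inside the range of the cells but under each group median given above. Nanog, at 105 and 103 TPM in serum bulk, also had higher medians in the high and low cells. Pou5f1, at 480 and 559 TPM in serum bulk, had lower ones. What sets the levels of these genes apart between cells and bulk was not tested.

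The middle cells of serum were left out of the group means of the main fit. They lay between the outer groups on both plates for 82 of the 139 genes called higher (59%) and for 22 of the 70 called lower (31.4%). The same held for 18 of the 21 past 1 log2 unit on both plates (85.7%). The share over all genes tested was 13.3%. A wide gap between the outer groups itself leaves more room for a value between them, so these shares are a description. Ifitm1 and Klhl13 showed that order in their medians on both plates, and Rhox6 in its count of cells at 1 TPM. AK002390, with a middle median of 437 TPM on plate 1 and 955 TPM on plate 2, stood close to the low cells there.

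The same split by Dppa3 was made in the 94 cells in 2i and in the 84 Dgcr8-/- cells, of 1 plate each and so without a test. Of the 139 genes called higher in serum, 1 was at least 1 log2 unit higher in the Dppa3-high cells in 2i, beside 0.53% of all genes tested, and 12 were in Dgcr8-/- cells, beside 1.98%. They were above 0 for 82 of 139 in 2i and 74 of 139 in Dgcr8-/- cells, that is little more than for all genes tested (52.9% and 52.6%). Of the 70 genes called lower in serum, 30 were below 0 in 2i and 44 in Dgcr8-/- cells. These counts stand beside all genes tested, of which 52.9% and 52.6% were above 0. Of the 21 genes past 1 log2 unit on both serum plates, 16 were above 0 in 2i and 14 in Dgcr8-/- cells.

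Of the genes called higher, Gstm3 was the 1 that passed 1 log2 unit on each of these plates, with 1.46 in 2i and 1.74 in Dgcr8-/- cells, against 1.85 and 1.26 on the serum plates. Ifitm1 was at 0.61 in 2i and 0.52 in Dgcr8-/- cells, against 1.76 and 1.68 in serum, and Klhl13 at 0.75 and 0.87, against 1.70 and 1.98. Rhox9 was at 0.83 in 2i and 2.67 in Dgcr8-/- cells, and Rhox6 at 0.21 and 0.61. In 2i the high cells of the split had 437 to 1013 TPM of Dppa3 and the low cells 6.36 to 226 TPM, so the low cells there overlapped in level with the high cells of serum. Dgcr8-/- low cells had 0 to 54.7 TPM and high cells 179 to 952 TPM.

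**Figure D4:**
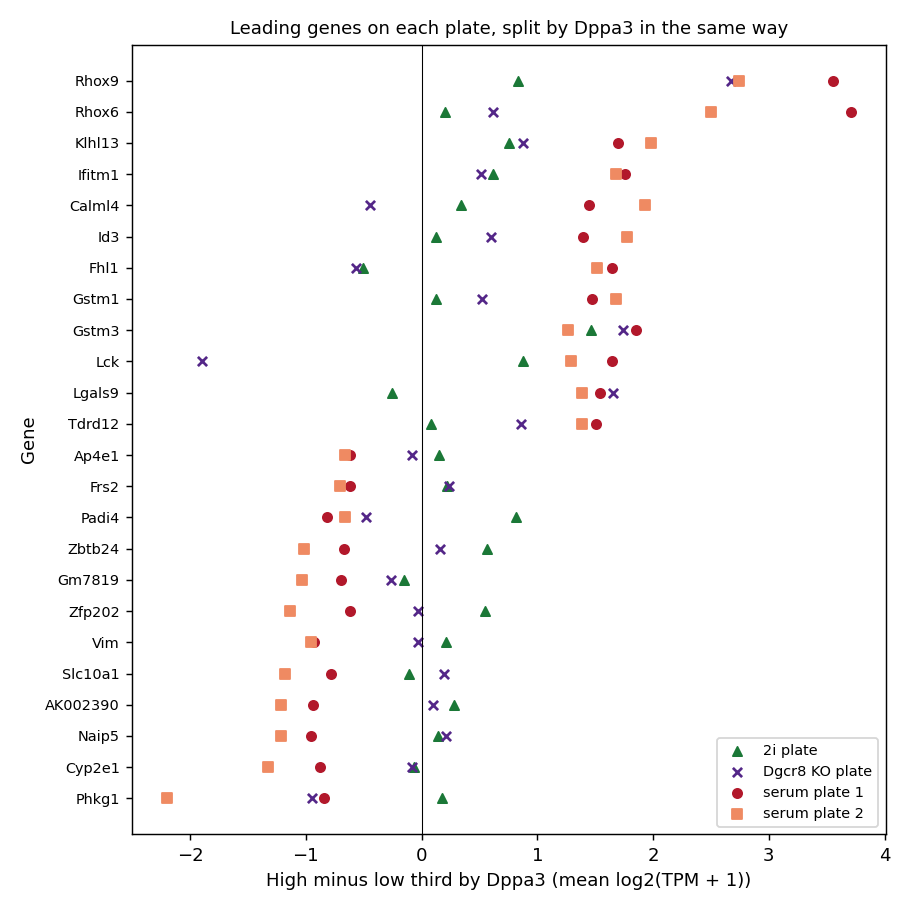
Difference between Dppa3-high and Dppa3-low cells, in mean log2(TPM + 1), on serum plate 1, serum plate 2, the 2i plate and the Dgcr8-/- plate, for the 12 genes called higher and the 12 called lower that lead on both serum plates. The serum values lie to 1 side of 0 for each gene, while the 2i and Dgcr8-/- values lie on both sides and mostly nearer to 0, with Gstm3 above 1 on all 4 plates.

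Bulk RNA shows where genes that go with Dppa3 inside serum stand when Dppa3 is higher across the culture, as it was in 2i. Of the 139 genes called higher in Dppa3-high serum cells, 27 were at least 1 log2 unit above both serum libraries in 2i bulk, beside 9.53% of all genes tested, and 42 were at least that far below both, beside 5.43%. Of the 21 genes past 1 log2 unit, 7 were higher and 11 lower in 2i bulk. The median 2i difference was -0.19 over the genes called higher and 0.17 over all genes tested, from 1 library in 2i and without a test. Of the 70 genes called lower, 7 were higher and 6 lower in 2i bulk.

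The X-linked homeobox genes were far lower in bulk RNA of 2i and Dgcr8-/- cells than of serum cells. Rhox6 had 0.696 TPM in 2i bulk, 1.84 and 1.54 TPM in Dgcr8-/- bulk, and 311 and 334 TPM in serum bulk, and Rhox9 had 1.09, 6.58 and 6.37, and 222 and 266 TPM. Id3 had 3.22 TPM in 2i, 6.80 and 7.60 TPM in Dgcr8-/- cells, and 94.2 and 135 TPM in serum, and Klhl13 had 9.11, 28.6 and 26.7, and 84.6 and 63.1 TPM. These genes were lower in 2i, where Dppa3 was higher; in bulk, fewer cells with an RNA and less of it per cell cannot be told apart. The H3K4me3 count of the Rhox6 window was 23 in 2i, 12 in Dgcr8-/- cells and 146 in serum, at percentiles 38.3, 18.9 and 45.1 of windows of 1 library each.

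Gstm1 and Gpx4 went the other way. Gstm1 had 95.3 TPM in 2i bulk, 376 and 327 TPM in Dgcr8-/- bulk, and 31.7 and 25.0 TPM in serum bulk. Gpx4 had 847 TPM in 2i, 718 and 800 TPM in Dgcr8-/- cells, and 310 and 350 TPM in serum. Tdrd12 had 115 TPM in 2i, 36.9 and 32.8 TPM in Dgcr8-/- cells, and 24 and 23 TPM in serum, and Nanog, which did not rise with Dppa3 inside serum, had 285, 306 and 236, and 105 and 103 TPM. Ifitm1, the gene most correlated with Dppa3 in serum cells, had 349 TPM in 2i bulk, 1108 and 948 TPM in Dgcr8-/- bulk, and 355 and 341 TPM in serum bulk, so the 2i value lay between the 2 serum libraries.

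**Figure D5:**
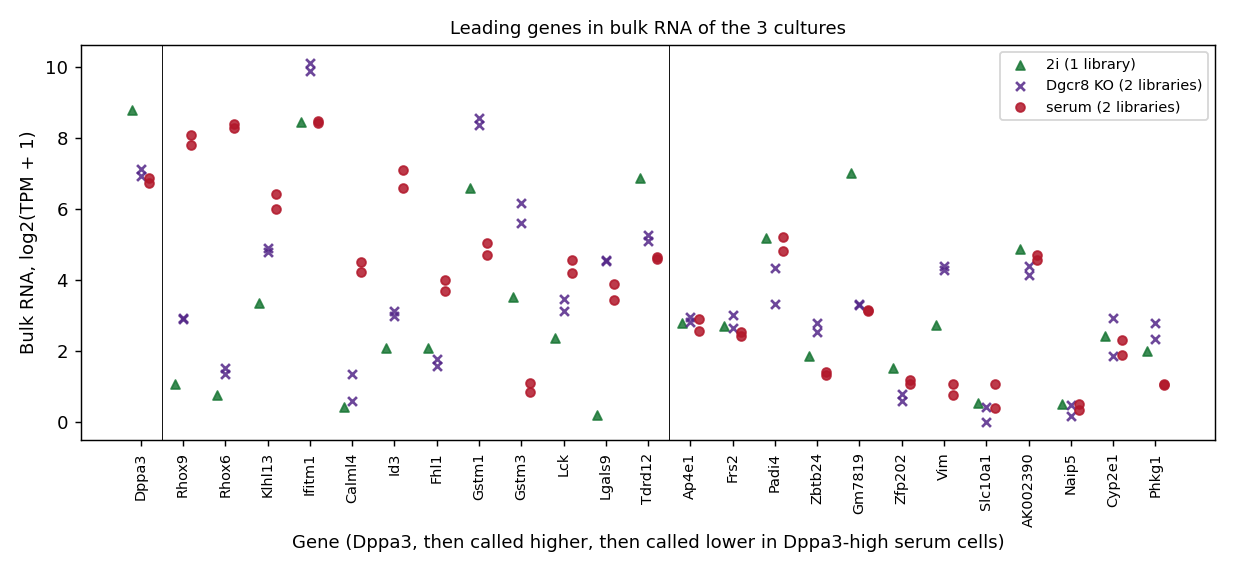
Bulk RNA levels, as log2(TPM + 1), of Dppa3 and of the 12 leading genes called higher and 12 called lower in Dppa3-high serum cells, in the library from 2i and the 2 libraries each from Dgcr8-/- and serum cells. Dppa3, Gstm1, Gstm3 and Tdrd12 were higher in 2i than in serum, while Rhox6, Rhox9, Klhl13, Calml4, Id3, Fhl1, Lck and Lgals9 were lower.

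At the chromatin windows of these genes, the H3K4me3 level in serum had a median percentile of 56.1 over the 119 windows of genes called higher and 52.6 over the 54 of genes called lower, against 75.5 over all genes tested. For RNA polymerase II the same medians were 71, 55.7 and 75.6, and for H3K27me3 39.3, 53.3 and 35.7. In 2i the H3K4me3 medians were 56.8, 57.3 and 75.4, so the genes called lower lay slightly above those called higher there, and in Dgcr8-/- cells they were 56.1, 54.9 and 74.9. The order of serum was also that of RNA polymerase II in 2i (68.1, 63.8 and 74.8) and in Dgcr8-/- cells (71.3, 60.7 and 74.9). The H3K27me3 medians were 41.2, 49.5 and 36.7 in 2i, but in Dgcr8-/- cells both lists were at 49.2, against 34.2. The input libraries, made without an antibody, also lay lower at both lists than over the genes tested, at 55.4 for each list against 63.7 in serum, 50.6 and 56.7 against 68.2 in 2i, and 59.4 for each against 66.5 in Dgcr8-/- cells; the part of this in the values of the marks was not tested. The ChIP came from whole cultures, so it does not separate Dppa3-high from Dppa3-low cells, and each value comes from 1 library.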

How the data were processed

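Single-cell RNA, bulk RNA and ChIP libraries were used as deposited. Bowtie, RSEM and mm9 are named in the submitters' processing notes, with neither version nor role. The RNA tables deposited by the authors hold the natural log of TPM + 1, as the sums after reversing the log show, and the deposited ChIP table holds raw counts in windows of 1000 bases. TPM keeps no trace of reads, so depth is unknown and genes detected are given in its place. The deposited mESC table lists no gene above 0 in fewer than 10 of the 183 serum cells (5 of the 94 2i and of the 84 Dgcr8-/- cells), so zeros can come from that minimum. Of 22443 names, 51 had the form of a date and were dropped. No cell was left out and no doublet caller was run; chambers were inspected optically, per the labels' protocols.

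Cells are not replicates, so log2(TPM + 1) was averaged per group and plate, with a pseudocount of 1. Genes at 1 TPM in at least 10% of cells of each plate were tested, without Dppa3, by limma 3.58.1 (R 4.3.3), using a trend and plate as a block, an adjusted p under 0.05, and 1 residual degree of freedom. The estimated prior degrees of freedom were infinite. Plate pairs the groups, since both groups of a plate are cells of that plate. Their deviations from the group means correlated at 0.552 over 11502 genes. The p-values rest on how far the difference between the groups disagrees between these plates, pooled over genes along the trend. Nothing says that the plates are separate cultures, so that disagreement may be technical.

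Named genes are Dppa3, the 12 higher and 12 lower calls with the greatest smaller-of-2-plates difference, in each of the gene lists the 4 members with the greatest such difference and every call, the 5 highest and 5 lowest by mean rank correlation with Dppa3, and Nanog, Pou5f1, Zfp42 and the neighbours of Dppa3. Hmgn5 and Gstm2 were named after their values were seen. The values of 1 other gene that the rule names are not reported here. The cells, lists and genes were chosen with earlier results of these data known. Chromosomes come from the ChIP table, and RefSeq supplied the promoter windows.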

Additional observations from a re-analysis of the deposited data

Results flagged for a closer look

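Several genes that went one way with Dppa3 on both serum plates went the other way, by at least 0.5 log2 units, when the cells in 2i or the Dgcr8-/- cells were split by Dppa3. The difference between cultures was not tested, since 2i and Dgcr8-/- have 1 plate each. How many of all genes tested did so was not counted. The serum calls of Lefty1, Padi4, Zbtb24 and Zfp202 were lost without the trend and in other alternatives, while those of Lck, Fhl1 and Sox15 were lost only without the plate block. Among genes higher in Dppa3-high serum cells, Lck was at -1.895 in Dgcr8-/- cells, and Fhl1 was at -0.503 in 2i and -0.565 in Dgcr8-/- cells. In 2i, Sox15 was at -0.883 and Lefty1 at -0.841. Among genes lower in Dppa3-high serum cells, Padi4 was at 0.817, Zbtb24 at 0.569 and Zfp202 at 0.544 in 2i.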

How the results depend on the processing

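The counts of calls, 139 higher and 70 lower, moved with several settings. Higher and lower calls were 34 and 8 with a pseudocount of 0.1, 51 and 30 with a pseudocount of 10, 68 and 39 for the upper against the lower 1 in 4 cells, 58 and 84 relative to the median gene, 52 and 10 with genes detected regressed out, and 45 and 7 without the trend. The log2 of the mean TPM gave 91 higher, and the upper against the lower 1 in 2 cells gave 136 lower. Without the replicate block only Rhox6 and Rhox9 were called: 2 higher and 0 lower by limma (71 lower at an unadjusted p under 0.05). The 21 genes past 1 log2 unit on both plates became 126 and 6 with a pseudocount of 0.1 and 10, 8 and 32 with 1 in 2 and 1 in 4 cells, and 11 with genes detected regressed out; with 1 plate left out, 71 to 169 genes passed on the other. Filters at 25% of cells or none kept all 3 counts within 1.5 times. So did leaving out the cells high in trophoblast markers (123 higher, 58 lower, 20 past 1), an alternative chosen after seeing the data. The order of ties could not change the groups, since cells on either side of a cut never had the same Dppa3 value. Robust moderation, also chosen after seeing the data, again estimated infinite prior degrees of freedom and so repeated the main fit, with 139 higher and 70 lower. Moderation has no part in the count past 1. Lgals1 reversed to -0.243 as the log2 of the mean TPM. Under each alternative other than that without the block, 23 distinct higher and 2 lower genes stayed called. No cause of these changes was tested. TPM gives no depth, so no counting error can be set beside a value.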
